A study of Arabidopsis thaliana with 38 samples.

Results

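A set of 10 heat response genes of Arabidopsis thaliana was followed, array by array, through nuclei of the early embryo. They were 10 of the 27826 loci on the array: the heat shock factor HSFA2 (AT2G26150), its fellow regulator MBF1C (AT3G24500), the chaperones HSP101 (AT1G74310), HSP90.1 (AT5G52640) and HSP70 (AT3G12580), and the small heat shock proteins HSP17.6II (AT5G12020), HSP17.6A (AT5G12030), HSP17.4 (AT3G46230), HSP18.2 (AT5G59720) and HSP17.6C (AT1G53540). The members were picked by locus with earlier results of these arrays known, because several of them had stood high in cell type nuclei against whole-embryo nuclei. Their levels in the groups are therefore given as a description, without a p. Counts of members past a threshold between stages are given too, and nothing is read from them. Tests are given for 63 other heat genes, whose lists were also chosen with earlier results of these arrays known.

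Heat shock factors are transcription factors that bind heat shock elements in promoters and switch on chaperone genes when proteins unfold. HSP70 and HSP90 chaperones hold and refold client proteins, HSP101 pulls aggregated proteins apart, and small heat shock proteins bind unfolded proteins before they aggregate. HSFA2 is itself induced by heat and prolongs the response, and MBF1C is a transcriptional coactivator needed for heat tolerance. In seeds some small heat shock proteins also accumulate during maturation without heat.

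RNA of nuclei was measured on 38 one-colour arrays. The nuclei came from INTACT, a two-component system that tags the nuclear envelope of a chosen cell type so that its nuclei can be captured. Nuclei were isolated 72 h after hand pollination (16-cell stage) from inner lower tier cells (ILT_16C, 3 arrays) and the embryo (EMB_16C, 3). At 81 h (early globular, EG) they were isolated from vascular (VSC_EG, 4), ground tissue (GSC_EG, 4) and suspensor cells (SUS_EG, 3) and the embryo (EMB_EG, 4). At 100 h (late globular, LG) they came from vascular (VSC_LG, 4), ground tissue (GSC_LG, 3) and suspensor cells (SUS_LG, 3), nuclei with the label QC (QC_LG, 3) and the embryo (EMB_LG, 4). All plants were grown at a constant 22 °C with 16 h of light and 8 h of dark, and 0 of the 38 samples carry a label that names a heat treatment. The sources used here name no ecotype, line or promoter that drives the tags. Per the series design, the arrays of a group hold pooled biological replicates.

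Values are log2 intensities, where 1 unit is a doubling. Array medians lay between 2.47 and 2.71 and interquartile ranges between 1.03 and 2.10, so a value near 2.5 is that of a typical locus and may be background. Of the markers that name the tissues, 0 of 4 vascular genes were called higher than in the embryo in VSC_EG and VSC_LG (2 and 1 with an unadjusted p under 0.05, in either direction), 0 of 3 ground tissue genes in GSC_EG and GSC_LG (0 and 2), 0 of 2 suspensor genes in SUS_EG and SUS_LG (2 and 0), and the QC marker WOX5 was not called in QC_LG (1.13 higher). Of the vascular genes, MP averaged lower than in the embryo, at 4.90 in VSC_EG against 6.33 and at 5.42 in VSC_LG against 6.72. BHLH32 averaged higher, at 3.50 against 2.60 and at 3.63 against 3.38. The direction of HB-8 and ATHB-15 differed between the stages. SCR, of the ground tissue genes, averaged 3.12 in GSC_EG against 3.46 and 5.53 in GSC_LG against 3.85. JKD averaged 2.64 against 3.03 and 4.85 against 3.71, and MGP 1.94 against 1.93 and 2.73 against 2.54. The suspensor genes WOX8 and HB-3 averaged higher in SUS_EG and SUS_LG. The embryo proper marker ATML1 averaged 5.03 in SUS_EG against 5.14 and 5.47 in SUS_LG against 5.47. WOX2, also of that list, averaged 2.71 against 2.39 and 2.76 against 2.95. In bulk nuclei, fewer cells with the transcript and less transcript per nucleus cannot be told apart.

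HSFA2 had its highest levels in ground tissue and suspensor nuclei at 81 h. It measured 6.17, 6.96, 6.82 and 4.58 in GSC_EG and 5.84, 5.68 and 5.63 in SUS_EG, against 2.82, 3.20, 2.62 and 2.44 in EMB_EG. All 7 arrays of both cell types lay above all 4 embryo arrays, and GSC_EG 4 was the lowest of its group. In VSC_EG it measured 5.05, 2.54, 3.18 and 3.30, with the first and the fourth array above all embryo arrays. At 100 h it measured 4.37, 4.48, 6.16 and 4.33 in VSC_LG and 5.51, 5.25 and 4.52 in GSC_LG, against 3.10, 2.78, 2.84 and 2.61 in EMB_LG. Both stood above the embryo on every array. In SUS_LG (3.14, 2.37 and 4.04) and QC_LG (2.38, 3.11 and 2.91) the arrays overlapped those of the embryo. In the 16-cell embryo HSFA2 measured 4.18, 3.61 and 2.68 in ILT_16C, against 3.51, 3.85 and 2.94 in EMB_16C. In the order of the 11 group means, 2 of the 10 steps between neighbours were larger than the larger SD of the pair, and the order at the other steps is not resolved.

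MBF1C stood high in the same groups. It measured 7.92, 6.99, 7.89 and 6.98 in GSC_EG and 7.09, 7.76 and 7.63 in SUS_EG, against 4.49, 4.42, 2.94 and 5.01 in EMB_EG. Its VSC_EG arrays (5.82, 5.28, 6.06 and 5.10) also lay above all embryo arrays, by a smaller margin. At 100 h MBF1C measured 7.01, 6.32, 8.24 and 6.86 in VSC_LG and 7.50, 5.80 and 6.26 in GSC_LG, against 3.78, 4.56, 4.14 and 4.83 in EMB_LG. SUS_LG (5.99, 6.14 and 4.62) and QC_LG (4.21, 4.38 and 5.78) overlapped the embryo. The 16-cell groups were spread widely, with 6.45, 7.04 and 5.05 in ILT_16C against 6.43, 5.62 and 2.79 in EMB_16C. MBF1C and HSP17.6II were apart from the embryo in 5 of 8 comparisons each, more than any other member.

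**Figure D1:**
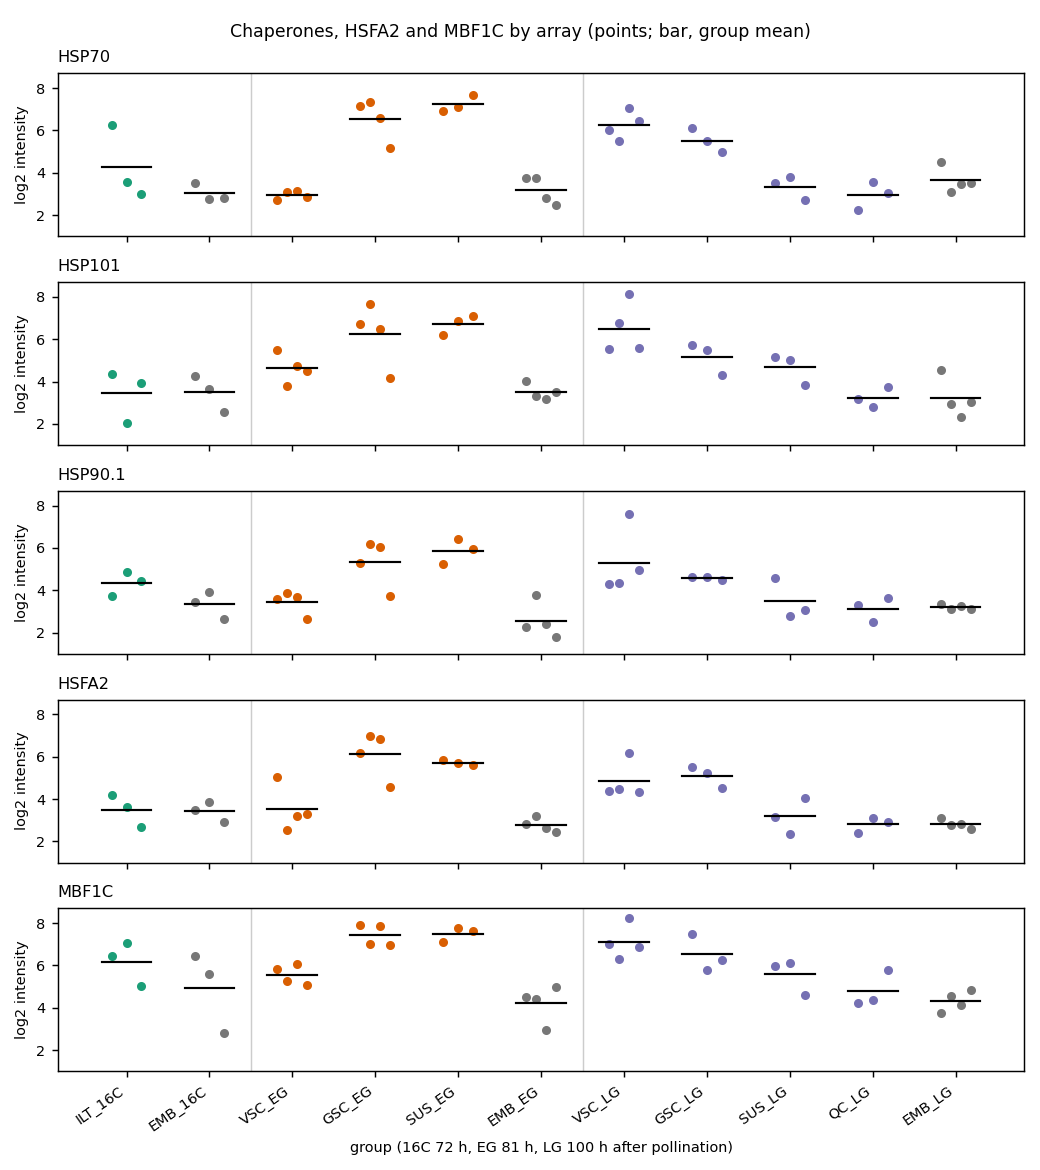
Log2 intensity (vertical axis) of HSP70, HSP101, HSP90.1, HSFA2 and MBF1C on each array (points) in the 11 groups (horizontal axis, in order of stage, with the whole embryo in grey at the right of each stage); black bars are group means. HSP70 lies between 5.15 and 7.68 in GSC_EG and SUS_EG and between 4.96 and 7.05 in VSC_LG and GSC_LG, above every whole-embryo array, the highest of which is 4.49.

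HSP70 had the widest range of the members, with group means spanning 4.27 log2 units against a mean SD within groups of 0.779. It measured 7.15, 7.34, 6.60 and 5.15 in GSC_EG and 6.90, 7.10 and 7.68 in SUS_EG, against 3.74, 3.74, 2.81 and 2.47 in EMB_EG. In VSC_EG it measured only 2.73, 3.11, 3.14 and 2.86, inside the range of the embryo. At 100 h the vascular arrays were high: 6.0, 5.51, 7.05 and 6.44 in VSC_LG, against 4.49, 3.11, 3.48 and 3.50 in EMB_LG. GSC_LG measured 6.09, 5.49 and 4.96 and was also clear of the embryo. SUS_LG (3.51, 3.80 and 2.70) and QC_LG (2.26, 3.55 and 3.06) were not. In ILT_16C the arrays measured 6.24, 3.55 and 2.97, against 3.53, 2.75 and 2.82 in EMB_16C, so that 1 array held the difference. Of the 27 cell type arrays, 15 exceeded the highest of the 11 embryo arrays.

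HSP101 followed the same groups with more spread. It measured 6.72, 7.68, 6.50 and 4.17 in GSC_EG and 6.18, 6.88 and 7.09 in SUS_EG, against 4.01, 3.32, 3.19 and 3.51 in EMB_EG. The VSC_EG arrays (5.46, 3.81, 4.71 and 4.51) overlapped the embryo, with VSC_EG 2 below EMB_EG 1. At 100 h it measured 5.52, 6.75, 8.14 and 5.56 in VSC_LG, 5.74, 5.47 and 4.29 in GSC_LG and 5.17, 5.04 and 3.85 in SUS_LG, against 4.53, 2.93, 2.33 and 3.03 in EMB_LG. Of these 3 groups only VSC_LG was clear of EMB_LG 1, the highest embryo array. The value of 8.14 in VSC_LG 3 was the highest of HSP101 on any array. QC_LG (3.18, 2.80 and 3.72) lay within the embryo's range. At 72 h HSP101 measured 4.35, 2.04 and 3.93 in ILT_16C, against 4.25, 3.65 and 2.55 in EMB_16C.

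HSP90.1, the heat-induced cytosolic HSP90, measured 5.24, 6.41 and 5.93 in SUS_EG and 5.30, 6.19, 6.02 and 3.75 in GSC_EG, against 2.27, 3.80, 2.41 and 1.80 in EMB_EG. GSC_EG 4, at 3.75, was again the lowest array of its group and the only one below an embryo array. At 100 h it measured 4.28, 4.35, 7.59 and 4.96 in VSC_LG and 4.63, 4.63 and 4.51 in GSC_LG, against 3.33, 3.10, 3.27 and 3.12 in EMB_LG. VSC_LG 3 stood far above the other arrays of its group, as it did for HSFA2 and HSP17.6II. It was also the highest of its group for HSP70, HSP101, MBF1C, HSP17.6A and HSP18.2, but not for HSP17.4 and HSP17.6C. The mean of the 10 members was 6.18 on VSC_LG 3, against 4.43 to 4.53 on the other arrays of the group. SUS_LG (4.57, 2.79 and 3.06) and QC_LG (3.30, 2.48 and 3.62) overlapped the embryo. So did VSC_EG (3.58, 3.87, 3.68 and 2.62) and, at 72 h, ILT_16C (3.72, 4.87 and 4.43 against 3.46, 3.90 and 2.64 in EMB_16C).

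The small heat shock proteins were less uniform. HSP17.6II and HSP17.6A are cytosolic small heat shock proteins of class II and, by the gene table used for names, neighbours on the chromosome; HSP17.4, HSP18.2 and HSP17.6C belong to class I. Members of a class are alike in sequence, and whether their probes detect each other's transcripts was not tested, since the sources used here do not describe the probe sets.

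HSP17.6II measured 4.52, 5.27, 6.04 and 4.55 in GSC_EG, 4.21, 5.48 and 4.75 in SUS_EG and 4.64, 3.94, 3.32 and 2.24 in VSC_EG, against 1.97, 2.04, 1.84 and 2.06 in EMB_EG. All 11 arrays of the 3 cell types lay above the embryo. At 72 h it measured 2.98, 7.48 and 5.53 in ILT_16C, against 1.28, 1.93 and 2.52 in EMB_16C, the largest difference of any member at that stage but with ILT_16C 1 only just above the embryo. At 100 h it measured 3.51, 4.81 and 3.18 in SUS_LG, against 2.93, 2.22, 2.78 and 2.58 in EMB_LG. In GSC_LG it measured only 1.77, 1.75 and 2.53, although HSP70, HSFA2 and MBF1C were above the embryo in the same nuclei. VSC_LG (3.59, 2.96, 6.20 and 2.75) overlapped the embryo at 1 array, and QC_LG measured 2.20, 2.19 and 2.64.

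HSP17.6A, next to it on the chromosome, shared this pattern only in part. Its highest group mean was also that of ILT_16C, with arrays at 6.29, 6.46 and 2.67 against 2.42, 4.20 and 2.66 in EMB_16C. In SUS_EG it measured 4.13, 5.35 and 5.88, a difference of 2.08 (SE 0.843) with arrays overlapping the embryo. It measured 3.54, 4.63, 2.65 and 2.35 in GSC_EG, inside the range of EMB_EG (2.95, 2.42, 1.96 and 4.80). It was clear of the embryo only in SUS_LG, at 4.56, 4.43 and 5.60 against 4.04, 2.61, 2.56 and 2.10 in EMB_LG. Its mean SD within groups, 1.22, was the largest of the members.

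HSP17.4 measured 5.03, 3.66 and 5.34 in ILT_16C, against 2.22, 2.89 and 2.11 in EMB_16C, and 4.64, 5.34 and 4.25 in SUS_EG, against 3.06, 3.26, 3.07 and 2.43 in EMB_EG. In both, all arrays were above those of the embryo. Its highest group mean was 4.93 ± 0.349 (SD, n = 4) in VSC_LG, against 3.81 ± 0.848 (n = 4) in EMB_LG, where EMB_LG 1 and 4 reached 4.63 and 4.41. In the remaining groups the arrays of HSP17.4 overlapped those of the embryo. Its differences there were 0.75 in VSC_EG, 0.90 in GSC_EG, -0.11 in GSC_LG, -0.14 in SUS_LG and -0.81 in QC_LG.

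HSP18.2 and HSP17.6C were near the array median in most groups. HSP18.2 averaged 4.24 ± 1.23 (n = 3) in ILT_16C against 2.64 ± 0.477 (n = 3) in EMB_16C, and measured 5.62, 3.28, 3.02 and 3.32 in VSC_EG against 2.10, 1.82, 2.88 and 2.94 in EMB_EG. HSP17.6C measured 2.54, 5.56 and 2.87 in ILT_16C, against 1.98, 2.28 and 2.35 in EMB_16C. Over the 8 comparisons with the embryo, HSP17.6C averaged higher in 4 and HSP18.2 in 7. HSP18.2 in VSC_EG and HSP17.6C in ILT_16C each had 1 array far above the others. For HSP17.6II, HSP17.6A, HSP18.2 and HSP17.6C, 0 of 10 steps between neighbouring group means exceeded the larger SD, and the same held for HSP90.1 and MBF1C, so the order of their groups is not resolved step by step.

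**Figure D2:**
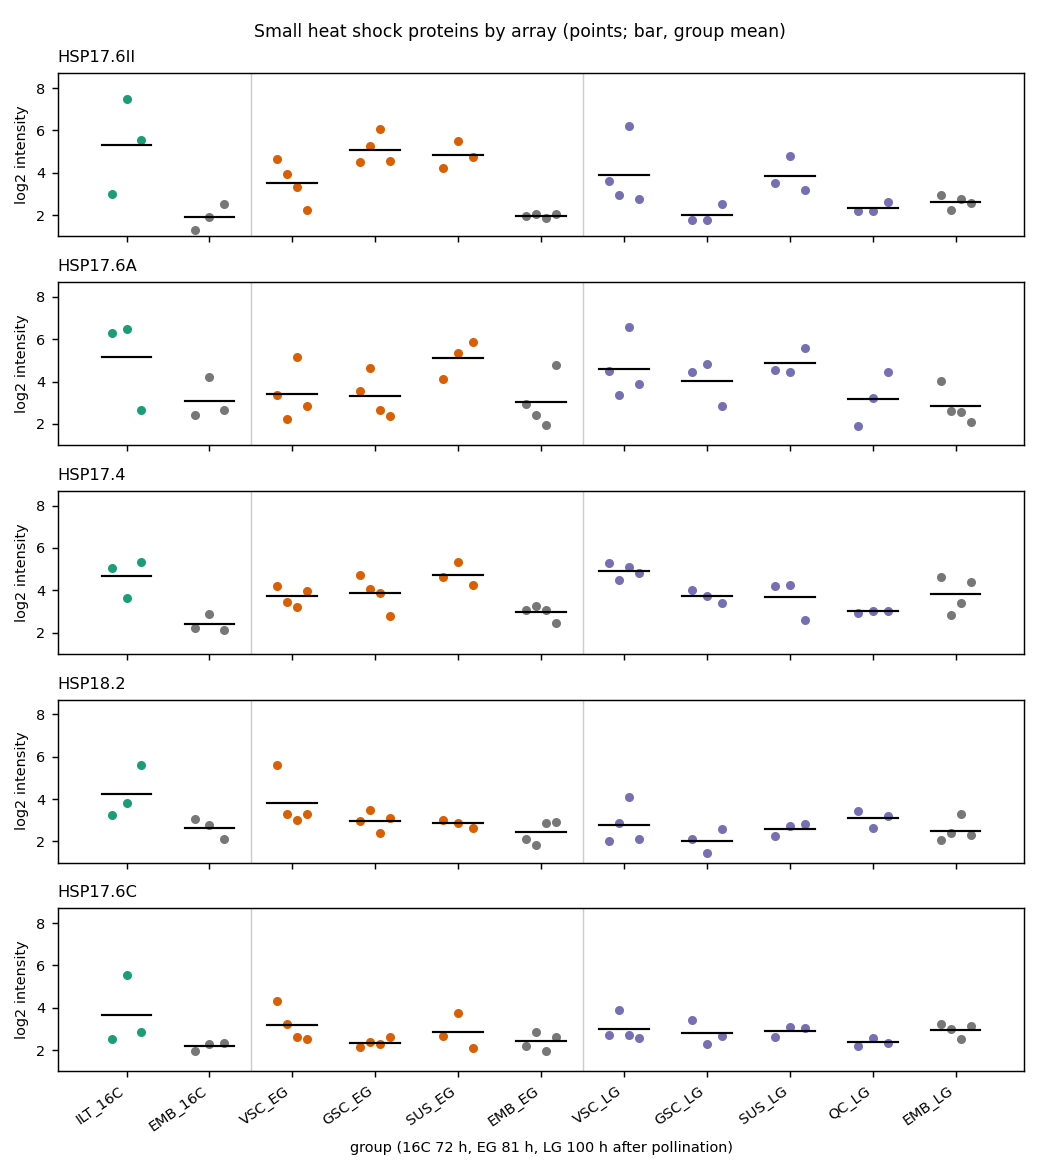
Log2 intensity (vertical axis) of HSP17.6II, HSP17.6A, HSP17.4, HSP18.2 and HSP17.6C on each array (points) in the 11 groups (horizontal axis); black bars are group means. HSP17.6II lies between 4.21 and 6.04 in GSC_EG and SUS_EG, against 1.84 to 2.06 in EMB_EG, while HSP17.6C exceeds 4 on 2 arrays only, ILT_16C 2 (5.56) and VSC_EG 1 (4.34).

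The members were also set against the whole embryo of the same stage. A group of 3 arrays clears the embryo on every array more easily than a group of 4. In SUS_EG, 7 of 10 members lay above EMB_EG on every array, against 4.22% of all loci, with differences (limma, with SE) of 4.03 (0.546) for HSP70, 16.4-fold, 3.29 (0.597) for HSP90.1, 3.28 (0.619) for MBF1C, 3.21 (0.657) for HSP101 and 2.94 (0.515) for HSFA2. In GSC_EG 5 did, against 3.91% of loci, led by HSP70 at 3.37 (0.505) and HSFA2 at 3.36 (0.476), each 10.3-fold. In VSC_LG 5 did, against 3.22%, led by HSP101 at 3.29 (0.608). In GSC_LG 4 did, against 5.76%, led by HSFA2 at 2.26 (0.515), 4.80-fold. In ILT_16C 4 did, all small heat shock proteins, against 5.58%, led by HSP17.6II at 3.42 (0.743), 10.7-fold. In VSC_EG 3 did, against 3.18%, led by HSP17.6II at 1.56 (0.643). In SUS_LG 2 did, HSP17.6A and HSP17.6II, against 5.01%, with 2.04 (0.843) and 1.21 (0.695). In QC_LG 0 did, against 4.53%, and 4 of 10 members were above 0. These contrasts chose the members, and nothing is read from the shares. Comparisons of 1 stage share the embryo arrays. Between SUS_EG and GSC_EG themselves, the arrays of every member overlapped.

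The mean difference over the 10 members was 1.43 in ILT_16C, 0.87, 2.02 and 2.43 in VSC_EG, GSC_EG and SUS_EG, and 1.71, 0.95, 0.62 and -0.11 in VSC_LG, GSC_LG, SUS_LG and QC_LG, while the median of all loci was between -0.10 and 0.02. Leaving out 1 array at a time brought the mean difference of VSC_LG to 1.29 at the lowest. In GSC_LG the small differences of 3 members depended on the array spread: with the interquartile range of each array as a covariate, HSP17.6II stood at 0.22, HSP18.2 at 0.15 and HSP17.6C at 0.40, against -0.61, -0.48 and -0.17 without it, and HSP70 at 1.15 against 1.87. The arrays of GSC_LG had interquartile ranges of 1.51 to 2.06, against 1.24 to 1.42 in EMB_LG.

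**Figure D3:**
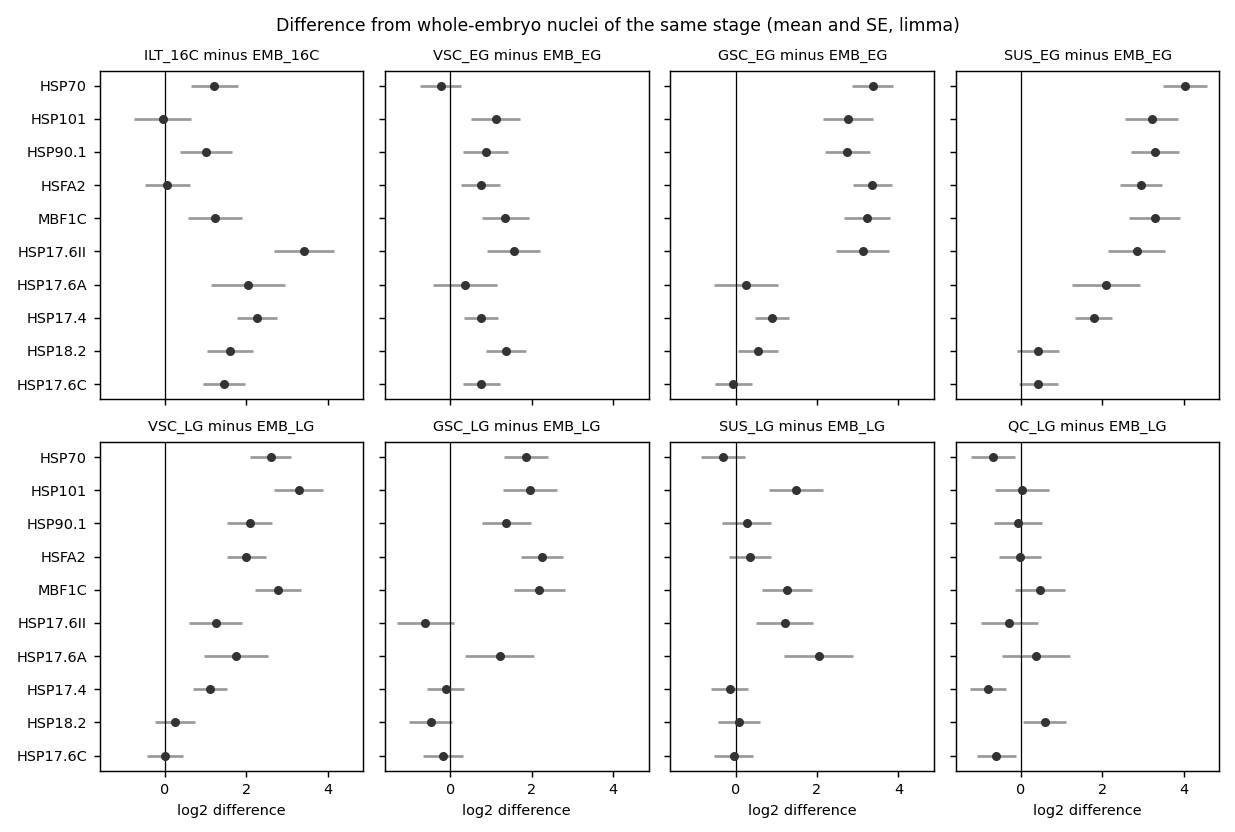
Log2 difference (horizontal axis) of each member between cell type nuclei and whole-embryo nuclei of the same stage, with its SE from limma (bars), for the 8 comparisons (panels). HSP70, HSP101, HSP90.1, HSFA2 and MBF1C lie between 2.75 and 4.03 in GSC_EG and SUS_EG and between 2.00 and 3.29 in VSC_LG, and all 10 members lie between -0.81 and 0.58 in QC_LG.

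Between 81 h and 100 h HSP70 differed in opposite directions in vascular and suspensor nuclei. These steps use arrays that took part in the choice of the members, so differences are given as a description (limma, with SE) without a p, and nothing is read from the counts past the threshold. In vascular nuclei HSP70 stood 3.29 (SE 0.505) higher at 100 h, with all 4 arrays of VSC_LG above all 4 of VSC_EG. HSP101 stood 1.87 (0.608) higher, HSP90.1 1.85 (0.553), MBF1C 1.54 (0.573) and HSP17.4 1.22 (0.418), also without overlap. HSFA2 stood 1.31 (0.476) higher with overlapping arrays, and HSP18.2 differed by -1.05 (0.486), the other way. At an adjusted p under 0.05, 1 of 10 members passed, HSP70, against 1.1% of all loci, and 2 passed without VSC_EG 1, HSFA2 being the second.

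In the suspensor the 100 h arrays were lower. HSP70 differed by -3.89 (SE 0.584), HSFA2 by -2.53 (0.55), HSP90.1 by -2.38 (0.638), HSP101 by -2.03 (0.702), MBF1C by -1.91 (0.662) and HSP17.4 by -1.07 (0.482), all with every SUS_LG array below every SUS_EG array. HSP17.6II, HSP17.6A, HSP18.2 and HSP17.6C had overlapping arrays. The count past the threshold was 2 of 10, HSP70 and HSFA2, against 0.359% of loci, and 1 with only these 2 groups in the fit or without SUS_EG 1, 2 or 3 or SUS_LG 1 or 2.

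In ground tissue HSP17.6II differed by -3.08 (SE 0.695), with every GSC_LG array below every GSC_EG array, while HSP70 and HSFA2 differed by -1.04 each (0.546 and 0.515) with overlapping arrays. The count past the threshold was 1 of 10, against 1.47% of loci, and 0 without GSC_LG 1 or GSC_LG 2 and with quantile normalization. In the whole embryo the counts were 0 of 10 by limma for 81 h against 72 h, 100 h against 81 h and 100 h against 72 h, against 0.187%, 0.111% and 0.237% of loci, with 0, 1 and 1 members at an unadjusted p under 0.05. The largest of these differences was that of HSP17.4, 1.41 (SE 0.451) at 100 h against 72 h.

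Across the 38 arrays HSP70, HSP101, HSP90.1, HSFA2 and MBF1C correlated with each other with r between 0.76 and 0.85 (median 0.80 of 10 pairs), and between 0.30 and 0.60 (median 0.44) once group means were removed. The 5 small heat shock proteins correlated with r between 0.04 and 0.50 (median 0.33), and -0.16 to 0.50 (median 0.08) within groups. The 25 pairs of a small heat shock protein with one of the other 5 members lay between -0.18 and 0.66 (median 0.41), above the median among the small heat shock proteins, with HSP17.6II and HSP90.1 at 0.66 and HSP17.4 and HSP70 at 0.63. These are descriptions over 38 arrays that share groups, embryo controls and normalization. The members' mean correlated with the interquartile range of the array with r = 0.17.

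**Figure D4:**
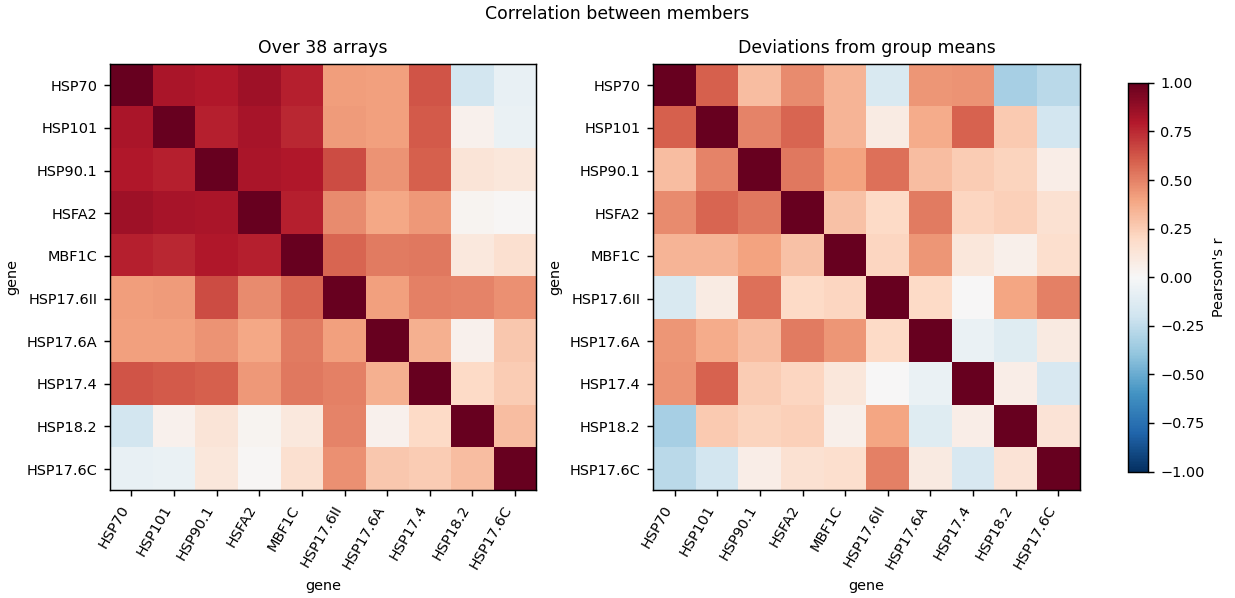
Pearson's r between members over the 38 arrays (left) and between their deviations from group means (right), on a colour scale of -1 to 1. The block of HSP70, HSP101, HSP90.1, HSFA2 and MBF1C lies between 0.76 and 0.85 at the left and between 0.30 and 0.60 at the right.

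Outside the members, the locus most like their mean was AT5G48570 (ROF2), a peptidyl-prolyl isomerase, with r = 0.88 over 38 arrays. It was followed by Hop3 (AT4G12400, r = 0.86), a co-chaperone that links HSP70 to HSP90. Next came AT1G54050 (0.84), AT5G51440 (0.83), AT5G12110 (0.80), AT1G59860 (0.79), AT1G67360 (0.75) and AT4G09150 (0.75), which have no symbol in the gene table. Of these 8 loci 5 were among the 63 other heat genes. An r over 0.5 was found for 21 of the 63 other heat genes and for 167 of all 27816 loci outside the members. By member, Hop3 was nearest to HSP101 (r = 0.87) and HSFA2 (0.84), AT1G54050 to HSP90.1 (0.89) and AT5G48570 to MBF1C (0.80). The nearest locus to HSP70 (AT1G30070, 0.82) and to each of the small heat shock proteins (0.63 to 0.78) was none of the 63.

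The 63 other heat genes were 11 further loci listed as small heat shock proteins, 9 of the HSP70 family, 8 of the HSP90 and HSP100 families, 20 heat shock factors and 15 heat-induced genes and cofactors. These lists were drawn from background knowledge, but with earlier results of these arrays known, so their counts are not free of that choice. In GSC_EG 7 of 63 were higher than in EMB_EG (limma, adjusted p under 0.05), against 0.697% of all loci. Of these, 3 were from the small heat shock protein list: AT1G54050 by 3.85 (SE 0.611, adjusted p = 0.00114), AT1G59860 by 2.75 (SE 0.454, adjusted p = 0.00148) and AT5G51440 by 2.61. Hop3 was higher by 3.04 (SE 0.612, adjusted p = 0.00936), averaging 5.23 ± 1.29 in GSC_EG and 2.19 ± 0.358 in EMB_EG (SD, n = 4 each). AT5G48570 was higher by 2.64, ROF1, its relative, by 1.70 and HSP81-2 (AT5G56030), a cytosolic HSP90 present without heat, by 1.60; HSP81-2 has close copies that its probes may not tell apart. AT1G54050, AT1G59860 and Hop3 were called in all 15 reruns; the other 4 were not. The count was 3 to 4 without GSC_EG 1, 2 or 3 or EMB_EG 1, 2 or 4.

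In SUS_EG 6 of 63 were higher, against 0.126% of loci. AT5G48570 was higher by 3.99 (SE 0.719, adjusted p = 0.00952), AT5G51440 by 3.60, AT1G54050 by 3.47, Hop3 by 3.02 and AT1G59860 by 2.49. BAG6 (AT2G46240), a co-chaperone of the BAG family, averaged 5.25 ± 0.785 in SUS_EG (n = 3) and 2.38 ± 0.367 in EMB_EG (n = 4), a difference of 2.86 (adjusted p = 0.0419). The 6 calls rested on few arrays: without SUS_EG 2 or SUS_EG 3 there were 0, and without EMB_EG 3 there were 2. Pollen markers moved with this group and with others: 2 of 9 were called higher in SUS_EG. Their summed intensity ranged from 259 to 601 in SUS_EG and from 136 to 234 in GSC_EG, against 66.6 to 92.2 in EMB_EG. The range overlapped that of the embryo in VSC_EG (87.3 to 238), SUS_LG (320 to 789), GSC_LG (170 to 256) and ILT_16C (131 to 356). The embryo ranges were 143 to 435 in EMB_LG and 155 to 304 in EMB_16C. The part of the pollen markers in these results was not tested.

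In VSC_LG 4 of 63 were higher, against 0.413% of loci: AT2G29500 by 3.67 (SE 0.861, adjusted p = 0.0313), AT5G48570 by 3.11, AT1G54050 by 2.55 and AT1G59860 by 2.03. The count was 0 without VSC_LG 3, EMB_LG 2 or EMB_LG 3, 1 without VSC_LG 2 or EMB_LG 4 and 2 without EMB_LG 1. Of the pollen markers 1 of 9 was called here, with summed intensities of 489 to 1683 in VSC_LG against 143 to 435 in EMB_LG, and their part was not tested.

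The inner lower tier had 1 of 63 higher, against 0.295% of loci: AT2G29500, from the small heat shock protein list, by 4.42 (SE 0.994, adjusted p = 0.0364), averaging 7.75 ± 0.423 in ILT_16C and 3.32 ± 2.71 in EMB_16C (SD, n = 3 each). It was lost without any 1 of ILT_16C 1, 2 and 3 and EMB_16C 1 and 2, which left 0. VSC_EG also had 1, against 0.963% of loci: the heat shock factor HSFA8, by 1.60 (SE 0.383, adjusted p = 0.0217), lost without VSC_EG 2 or 3 or EMB_EG 1, 3 or 4. By limma 0 of 63 were higher in GSC_LG, SUS_LG and QC_LG, against 0.316%, 0.539% and 0.733% of loci, with 14, 7 and 12 at an unadjusted p under 0.05 in either direction. Without EMB_LG 1 there was 1 in GSC_LG, and without QC_LG 2 there was 1 in QC_LG. In QC_LG the general cytosolic HSP70 HSC70-1 (AT5G02500) was lower by this test, the 1 of 63 against 0.765% of loci, averaging 6.33 ± 0.609 in QC_LG (n = 3) and 7.67 ± 0.571 in EMB_LG (n = 4), with overlapping arrays (log2 difference -1.34, SE 0.31, adjusted p = 0.0188). That call was lost with only these groups in the fit (adjusted p = 0.242) and without QC_LG 1 or 2 or EMB_LG 1, 3 or 4, and kept in 8 of 14 reruns. Of the pollen markers 6 of 9 were called higher in QC_LG, with summed intensities of 477 to 3573 in QC_LG against 143 to 435 in EMB_LG; their part was not tested.

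**Figure D5:**
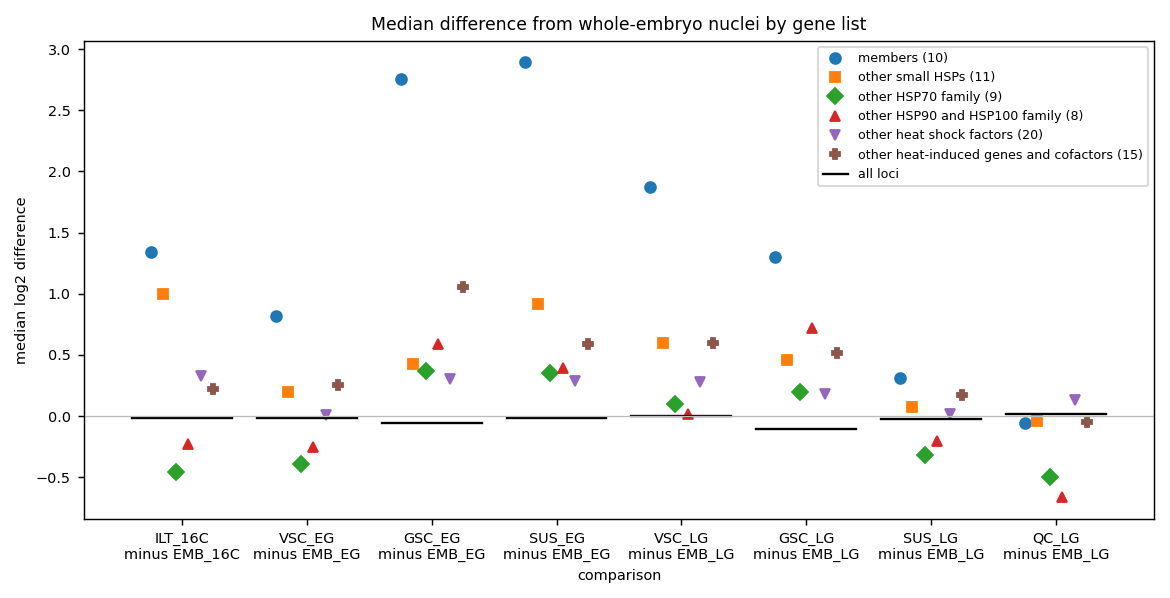
Median log2 difference (vertical axis) between cell type and whole-embryo nuclei of the same stage (8 comparisons, horizontal axis) for the 10 members and 5 lists of other heat genes (number of loci in brackets); black lines are the median of all loci. The members' medians are 2.75 in GSC_EG and 2.89 in SUS_EG, while the median of the 20 other heat shock factors lies between 0.01 and 0.33 in the 8 comparisons.

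Of the 20 other heat shock factors HSFA8 in VSC_EG was the 1 called in the 8 comparisons. HSF1 (AT4G17750), a constitutive factor of class A, averaged 3.07 ± 0.321 in SUS_EG (n = 3) and 2.70 ± 0.35 in EMB_EG (n = 4), and HSF4 (AT4G36990), of class B, 6.16 ± 0.714 in GSC_EG and 4.70 ± 0.516 in EMB_EG (n = 4 each); neither passed. HSFA7A (AT3G51910), which is induced by heat, averaged 4.12 ± 1.57 in SUS_EG (n = 3) and 2.02 ± 0.358 in EMB_EG (n = 4), and did not pass. The plastid small heat shock protein HSP21 (AT4G27670) averaged between 1.55 and 1.92 in all 11 groups and was below the 25th percentile of mean log2 value (2.10), as were 8 of the 63 in all and 0 of the members.

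Between stages, 2 of the 63 were called in vascular nuclei at 100 h, against 1.1% of all loci: AT1G07400 rose by 1.84 (adjusted p = 0.0336) and HSP81-2 by 1.53 (adjusted p = 0.0418). In ground tissue 1 of 63 was called, near the 1.47% of all loci: Hsp89.1 (AT3G07770), an organellar HSP90, with a difference of 1.54 (adjusted p = 0.0448). In the suspensor 3 of 63 were called, against 0.359% of loci: AT5G48570 fell by 3.64, AT1G54050 fell by 3.23 and AT5G51440 fell by 3.08 (adjusted p = 0.0201, 0.0261 and 0.0371). None of these 6 calls held in every rerun. AT1G07400 and HSP81-2 were kept in 7 of 15 each and Hsp89.1 in 6 of 14. AT5G48570, AT1G54050 and AT5G51440 were kept in 9, 8 and 5 of 13. AT1G07400 had overlapping arrays and averaged 1.57 in VSC_EG, below the array medians. When the change in a tissue's difference from the embryo between 81 h and 100 h was tested itself, 0 of 63 were called by limma for vascular, ground tissue and suspensor nuclei, against 0%, 0% and 0.00719% of all loci, with 7, 7 and 16 at an unadjusted p under 0.05.

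Genes induced early by wounding and touch moved with several groups. Of 9 such genes, 2 were called higher in ILT_16C, 3 in VSC_EG, 3 in GSC_EG, 0 in SUS_EG, 3 in VSC_LG, 0 in GSC_LG, 4 in SUS_LG and 1 in QC_LG, against 0.295%, 0.963%, 0.697%, 0.126%, 0.413%, 0.316%, 0.539% and 0.733% of all loci in the same order. By limma at an unadjusted p under 0.05 the counts for SUS_EG and GSC_LG were 4 and 6. The mean of the 9 correlated with the members' mean with r = 0.50 over 38 arrays, and its part in the members' levels was not tested. Their summed intensities were 350 to 687 in SUS_EG against 194 to 282 in EMB_EG, and 387 to 875 in SUS_LG against 128 to 221 in EMB_LG. Of 11 seed coat markers 2 were higher in SUS_LG and 0 in the other 7 groups (0 to 3 at an unadjusted p under 0.05), and of 10 endosperm markers 0 were called in any of the 8 groups (at most 1 at an unadjusted p under 0.05). The mean of 9 chaperones of the endoplasmic reticulum, correlated with the members' mean with r = 0.33, and by limma 0 of 9 were called in each of the 8 comparisons (0 to 2 at an unadjusted p under 0.05).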

How the data were processed

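Nuclear RNA was measured on 38 one-colour arrays in 11 groups. Per the submitters' processing notes, the authors summarised each locus with RMA, and the deposited values are linear intensity. The sources used here give neither the RMA version nor the probe sets. The array medians lay close together, between 2.47 and 2.71, but the interquartile ranges did not, at 1.03 to 2.10. The arrays thus keep unlike spreads, and a difference in the total RNA of nuclei cannot be read from these values. The table holds 27826 loci, and 0 of its columns belong to no sample.

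Intensities were taken to log2 with no added constant and fitted with limma 3.58.1 under R 4.3.3, as 11 group means over the 38 arrays together. A call is a Benjamini-Hochberg adjusted p under 0.05 over all loci. Each p-value and SE rests on the spread of a locus within all 11 groups (27 residual degrees of freedom), moderated over loci by limma. They do not measure the spread of the compared groups alone. Having 3 or 4 arrays a group limits the precision. The design also set tests of the members between stages; since the same arrays took part in choosing them, only their differences and counts are given. Code was tested on simulated data.

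The 10 members and the lists of other heat genes and markers were chosen with earlier results of these data known. List membership comes from background knowledge. All members are named, and of the other heat genes up to 6 called loci per comparison by smallest adjusted p, a fixed set, and the loci whose values were most like the members. Hsp89.1 and the loci named in stage steps outside that set were named after their values were seen. Symbols and neighbours came from a RefSeq gene table, which held 27241 of the loci, all members and all 63 other heat genes among them. Alternatives were quantile normalization, median centring, a filter on dim loci, array weights, the replicate number as a block, the array's interquartile range as a covariate, only the groups compared, and leaving out each array.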

Additional observations from a re-analysis of the deposited data

Results flagged for a closer look

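In the groups of 4 arrays, 50 sets of values of a member were searched for an array far from the others, and 3 had one, where chance gives about 1 in 20. HSFA2 measured 6.16 in VSC_LG 3, against 4.33 to 4.48 on the other arrays of that group. HSP18.2 measured 5.62 in VSC_EG 1, against 3.02 to 3.32 on the others. HSP17.6C measured 3.88 in VSC_LG 2, against 2.59 to 2.73 on the others.

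For 2 of 30 pairs of a member and a tissue, all cell type arrays lay above the embryo mean at 1 stage and below it at the other. The rule leaves out the spread of the embryo arrays, and the change was not tested. In both pairs the arrays overlapped those of the embryo at the stage with the negative difference, so opposite directions are not shown. HSP70 in vascular nuclei stood at 2.61 against the embryo at 100 h and -0.23 (SE 0.505) at 81 h, a change of 2.84. HSP17.6II in ground tissue stood at -0.61 at 100 h and 3.12 at 81 h, a change of -3.73.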

How the results depend on the processing

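The members' mean difference moved by less than the spread between replicates in every rerun, and no result reversed among those with a call. Counts of other heat genes called higher moved as follows. With array weights they were 0 in ILT_16C, 2 in VSC_EG, 11 in GSC_EG, 8 in VSC_LG and 1 each in GSC_LG, SUS_LG and QC_LG. With only the groups compared in the fit they were 0 in ILT_16C, 2 in VSC_EG, 2 in VSC_LG and 1 in GSC_LG. Quantile normalization gave 8 in VSC_LG, and the array spread as a covariate 4 in GSC_EG. Leaving out 1 array at a time gave 0 to 1 in ILT_16C, 0 to 1 in VSC_EG, 3 to 9 in GSC_EG, 0 to 7 in SUS_EG, 0 to 6 in VSC_LG, 0 to 1 in GSC_LG, 0 in SUS_LG and 0 to 1 in QC_LG, against 1, 1, 7, 6, 4, 0, 0 and 0. Members past the threshold between stages, given as counts only since these arrays took part in their choice, became 0 with quantile normalization in ground tissue and 1 with only the groups compared in the suspensor; leaving out 1 array gave 1 to 2 in vascular nuclei, 0 to 1 in ground tissue and 1 to 2 in the suspensor. Fewer samples enter a fit without an array or with only the groups compared; the cause of the other moves was not tested. The labels' replicate numbers did not pair the arrays: same-numbered arrays deviated together with r from -0.11 to 0.21, and in 0 of 14 comparisons did every pair exceed 0.1. With the replicate number as a block, the counts of other heat genes were 8 in GSC_EG, 4 in SUS_EG and 5 in VSC_LG, and the counts of members past the threshold between stages were unmoved. Of 26 calls of other heat genes 3 held in every rerun. Differences at the dim end are compressed, and 3 or 4 arrays a group limit all calls.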
